A study of Mus musculus with 4 samples.

Results

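The microRNA genes of the embryonic mouse lung were described on arrays of *Hmga2*−/− (KO) and *Hmga2*+/+ (WT) lungs. A gene was taken as a member when a probe set of the array carried exactly 1 gene symbol and that symbol was a microRNA name beginning with *Mir* and a digit or with *Mirlet7*, host transcripts ending in hg left out. This gave 298 probe sets for 296 microRNA genes among 19938 genes in all, and the probe set with the highest mean over the 4 arrays stood for the only gene with several, *Mir713*. Another 61 probe sets carry a microRNA beside other symbols and were left out by this choice. Both groups were C57BL/6 lungs taken at embryonic day 18.5 from timed pregnancies, with 2 KO and 2 WT samples and 1 array each, labelled as biological replicates. The *Hmga2*−/− genotype is not limited to a cell type, and the titles of both WT samples share 1 group name and differ in the replicate number alone. If the WT lungs were not from separate embryos, p values measure a spread that may be technical.

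A microRNA gene is transcribed as a long primary transcript, from which the nuclease DROSHA cuts a hairpin and DICER1 a short duplex. One strand of the duplex is loaded into an Argonaute protein and pairs with messenger RNAs through its seed, the bases next to its start, so that the messages are translated less or decay. In the lung, let-7 is known for maintaining the differentiated state and for repressing *Hmga2* itself, and the *Mir17* cluster for promoting the growth of early epithelial progenitors. The arrays were hybridised with cRNA made from total RNA, and the probe sets are assigned to the microRNA gene. Which part of the primary transcript or hairpin the probes cover is unknown here, and mature microRNAs were not measured apart.

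The mature sequences of the let-7 family are printed because all its members share 1 seed, shown in capitals as bases 2 to 8, and differ outside it. Those of the *Mir17* cluster and its relatives fall into 4 seed groups. All are RefSeq sequences of build GRCm38.p6, written 5′ to 3′. Of the 8 let-7 sequences, each of 22 bases, miR-98-5p, let-7d-5p and let-7g-5p differ from let-7a-5p at 2 positions, let-7i-5p at 4, and let-7c-5p, let-7e-5p and let-7f-5p at 1.
let-7a-5p: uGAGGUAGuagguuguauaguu
let-7c-5p: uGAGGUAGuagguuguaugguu
let-7d-5p: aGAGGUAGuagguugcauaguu
let-7e-5p: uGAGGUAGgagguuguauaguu
let-7f-5p: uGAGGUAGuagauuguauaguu
let-7g-5p: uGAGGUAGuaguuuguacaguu
let-7i-5p: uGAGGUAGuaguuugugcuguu
miR-98-5p: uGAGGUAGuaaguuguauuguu
miR-17-5p: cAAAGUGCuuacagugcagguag
miR-20a-5p: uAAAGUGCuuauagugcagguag
miR-106b-5p: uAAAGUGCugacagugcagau
miR-93-5p: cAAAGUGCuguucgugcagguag
miR-18a-5p: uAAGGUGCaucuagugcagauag
miR-19a-3p: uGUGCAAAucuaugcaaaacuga
miR-19b-3p: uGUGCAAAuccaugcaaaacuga
miR-25-3p: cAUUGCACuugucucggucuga
miR-92a-3p: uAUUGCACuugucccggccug

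A second set is printed because these genes had the largest differences among those whose groups did not overlap, or, for *Mir34a*, the smallest p. Capitals again mark bases 2 to 8. Those of *Mir377*, *Mir380*, *Mir379*, *Mir382*, *Mir329*, *Mir300*, *Mir376b*, *Mir485* and *Mir543* lie in 1 region of chromosome 12, and no seed below is shared between them. The hairpin of *Mir218-1* lies at chr5:48223942-48224051 on the plus strand of GRCm38.p6, within the gene of the guidance ligand SLIT2, and that of *Mir34a* at chr4:150068454-150068555 on the plus strand. MiR-34b-5p and miR-449a-5p, of other genes, are shown because they share the seed of miR-34a-5p.
miR-218-5p: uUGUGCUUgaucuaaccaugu
miR-377-3p: aUCACACAaaggcaacuuuugu
miR-380-5p: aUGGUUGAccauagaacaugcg
miR-379-5p: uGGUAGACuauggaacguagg
miR-382-5p: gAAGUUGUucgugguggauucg
miR-329-3p: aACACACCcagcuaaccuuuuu
miR-300-3p: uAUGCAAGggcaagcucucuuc
miR-376b-3p: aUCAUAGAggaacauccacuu
miR-485-3p: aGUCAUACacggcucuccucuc
miR-543-3p: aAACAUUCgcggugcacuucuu
miR-34a-5p: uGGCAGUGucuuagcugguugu
miR-34b-5p: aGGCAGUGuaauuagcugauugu
miR-449a-5p: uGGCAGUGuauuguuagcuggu

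All values are the deposited log2 levels, normalised with RMA, and each difference is the mean of the arrays labelled KO minus that of the WT arrays. *Hmga2* itself, which codes for an architectural chromatin protein, had 9.65 and 9.39 in arrays labelled KO and 9.35 and 9.59 in WT arrays. Its difference was 0.051 (standard error, SE, 0.16, adjusted p = 0.892 from limma). The groups overlapped, and since the part of the gene that the probe set covers relative to the deletion is not known here, the labels were not settled by it and directions follow the labels. WT replicate 1 stood apart. It correlated with the other arrays at r = 0.976 to 0.985 over 30177 probe sets, where the others correlated at 0.992 to 0.997. Over the microRNA genes these values were 0.919 to 0.942 and 0.989 to 0.994. The tissue label was borne out by surfactant protein C, *Sftpc*, at 13.98 and 14.01 in arrays labelled KO and 14.13 and 14.05 in WT arrays. Markers of other cells differed in mean between the groups, where 58.8% of all genes had a lower mean in arrays labelled KO. Leukocyte markers had lower means in arrays labelled KO for 5 of 5 genes (median −0.71) and heart muscle markers higher means for 6 of 6 (median 0.67). Means were also lower for 4 of 5 endothelial markers (median −0.27) and 2 of 2 erythroid markers (median −0.38). They were higher for 5 of 5 smooth muscle markers (median 0.16), 3 of them with overlap, and for 2 of 2 neuroendocrine markers (0.10 and 1.49). Of these lists, only that of heart muscle held a gene called by limma. The summed linear level of leukocyte markers was 1407 to 1549 in arrays labelled KO and 1991 to 2220 in WT arrays, and that of heart muscle markers 9693 to 11350 and 6070 to 7114. Their part in the results on microRNA genes was not tested, and in whole lung fewer cells of a type and less RNA per cell cannot be told apart.

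Most microRNA genes had lower levels on both arrays labelled KO than on WT replicate 1, and levels nearer to those of WT replicate 2. Of the 296 genes, 282 (95.3%) had a lower mean in arrays labelled KO than in WT arrays, against 58.8% of all genes tested. Their median difference was −0.30, where that of all genes was −0.051. The median level of the microRNA genes was 5.60 and 5.53 in KO replicates 1 and 2 and 6.51 and 5.69 in WT replicates 1 and 2. The medians of KO replicates 1 and 2 and WT replicate 2 lie close together, and that of WT replicate 1 lies above them. WT replicate 1 was above WT replicate 2 for 260 genes (87.8%, background 41.6%), and KO replicate 1 above KO replicate 2 for 190 (64.2%, background 78.3%). Most microRNA genes were dim: their median mean level stood at percentile 15.8 of all genes, and 55 of 296 were among the brighter 60% of genes.

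**Figure D1:**
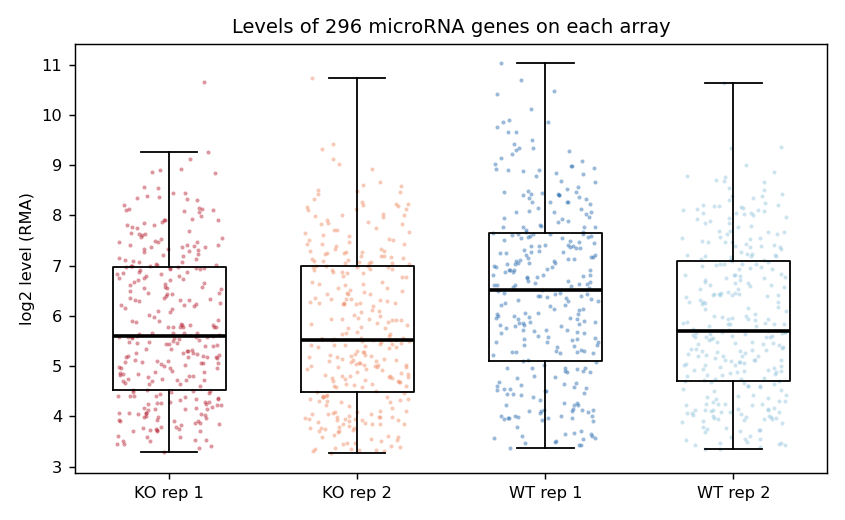
Log2 levels (RMA) of the 296 microRNA genes, 1 point per gene, on the arrays labelled KO (left) and the WT arrays (right). Boxes run between the quartiles with the median as a line, and whiskers reach the last gene within the usual multiple of the box height. The median is 6.51 on WT replicate 1 and 5.53 to 5.69 on the other arrays.

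With each WT array taken apart, the difference was of unequal size. Against WT replicate 1 alone the median difference of the microRNA genes was −0.51 and 279 were lower in arrays labelled KO (94.3%, background 53.9%). Against WT replicate 2 alone it was −0.091, and 225 were lower (76.0%, background 63.8%). Values lower by more than 1.2-fold were seen for 205 genes against WT replicate 1 (69.3%, background 23.5%) and for 39 against WT replicate 2 (13.2%, background 14.4%), near the background. Values higher by more than 1.2-fold were seen for 1 gene against each of these arrays, where the background was 22.9% and 6.01%. Against the mean of both WT arrays, 164 were lower by more than 1.2-fold (background 17.1%) and 1 higher (background 13.4%). WT replicate 1 was the highest of the 4 arrays for 252 microRNA genes (85.1%, background 35.0%). WT replicate 2 lay above both arrays labelled KO for 164 (55.4%, background 48.1%), below both for 31 (10.5%, background 24.0%) and between them for 101.

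None of the microRNA genes passed the test. By limma with Benjamini-Hochberg adjustment over all 19938 genes, 0 of 296 were called at an adjusted p under 0.05 in either direction, where 0.782% of all genes were called, 0.702% lower and 0.0802% higher. At an unadjusted p under 0.05, 39 were lower (13.2%, background 8.58%) and 0 higher (background 5.88%). Both arrays labelled KO lay below both WT arrays for 151 genes (51.0%, background 31.8%) and above both for 4 (1.35%, background 17.6%). With 2 arrays against 2, an exact permutation test of a single value cannot go below a two-sided p of 0.333. The counts turned on the WT arrays: without WT replicate 1, limma called 13 lower (4.39%, background 5.68%) and 0 higher (background 2.53%), and without WT replicate 2 it called 175 lower (59.1%, background 14.9%) and *Mir692-1* higher (background 16.7%). Without WT replicate 1, 10 of the 13 were genes of the region between *Dlk1* and *Dio3*, and the others were *Mir34a*, *Mir218-1* and *Mir133a-1*. These fits leave a lone WT array that is assumed to vary like the arrays labelled KO.

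Set beside other genes of like brightness, the microRNA genes lay apart against WT replicate 1 and nearer against WT replicate 2. In the band from the 40th to the 50th percentile of mean level, the median difference against WT replicate 1 was −0.72 for 35 microRNA genes and 0.032 for 1959 other genes. Against WT replicate 2 the medians were −0.15 and −0.051 in the same band. In the band up to the 10th percentile, which held 100 microRNA genes, the medians were −0.25 and −0.20 against WT replicate 1 and −0.084 and −0.096 against WT replicate 2. Other noncoding transcripts were set beside them. The 53 genes of small nucleolar RNAs, which guide the modification of ribosomal RNA, had a median of −0.27 against WT replicate 1 and of 0.13 against WT replicate 2. The 675 genes of long noncoding RNAs had −0.21 and −0.059, and 18553 protein-coding genes −0.016 and −0.057.

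**Figure D2:**
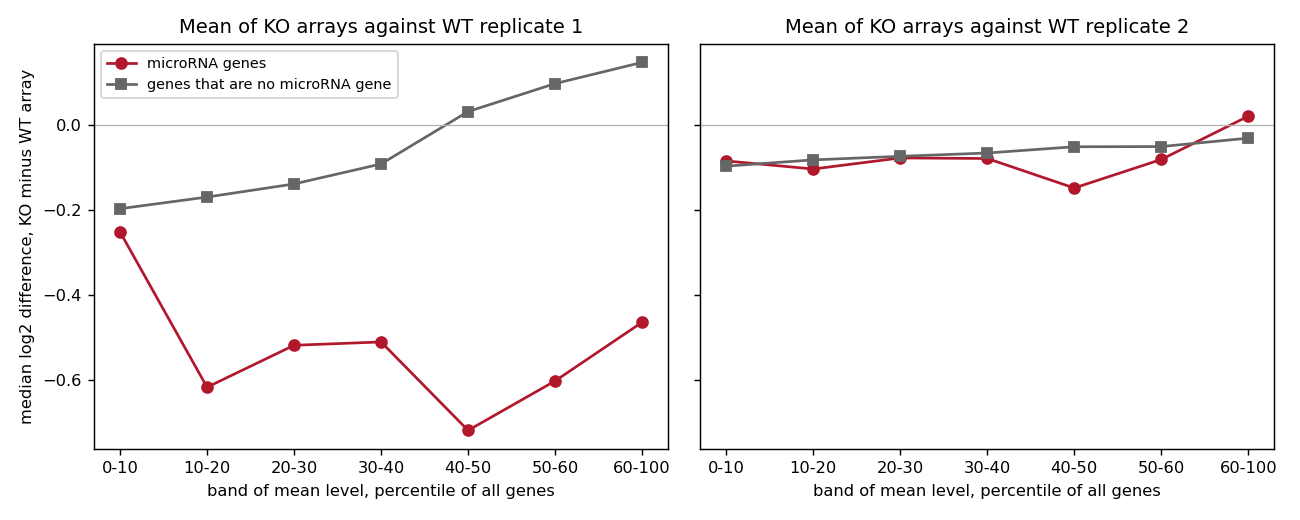
Median log2 difference between the mean of the arrays labelled KO and WT replicate 1 (left panel) or WT replicate 2 (right panel), in bands of mean level given as percentiles of all genes. MicroRNA genes are circles and other genes squares. The points lie apart on the left (−0.72 and 0.032 in the 40 to 50 band) and closer on the right. The bands from 50 to 60 and from 60 to 100 hold only 12 and 8 microRNA genes.

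The let-7 genes had lower means in arrays labelled KO, largely against WT replicate 1. Their products repress growth genes, among them *Hmga2*. Of 14 listed genes 10 were measured by a probe set of their own, and all 10 had a lower mean in arrays labelled KO than in WT arrays, *Mirlet7f-2* not under cyclic loess scaling (0.11), with a median difference of −0.40. Against WT replicate 1 the median was −0.74 and all 10 were lower. Against WT replicate 2 it was −0.086 and 7 were lower. None passed limma's test or had an unadjusted p under 0.05, and adjusted p values ran from 0.348 to 0.872.

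*Mirlet7c-1* had 4.80 and 4.85 in arrays labelled KO and 7.04 and 4.84 in WT arrays. Its difference of −1.12 (SE 0.63, adjusted p = 0.449 from limma) was the largest of the family, yet WT replicate 2 lay between the arrays labelled KO. *Mirlet7f-1* had 4.70 and 4.68 in arrays labelled KO and 6.25 and 4.87 in WT arrays, a difference of −0.87. *Mirlet7d* had 6.68 and 6.67 in arrays labelled KO and 8.27 and 6.77 in WT arrays, a difference of −0.85. Both lie with *Mirlet7a-1* in 1 cluster on chromosome 13, and the WT arrays lay above both arrays labelled KO. *Mirlet7a-1* had 5.82 and 5.47 in arrays labelled KO and 6.23 and 5.64 in WT arrays, a difference of −0.29 with overlap. *Mirlet7g* had 5.02 and 4.79 in arrays labelled KO and 5.56 and 5.12 in WT arrays, without overlap (−0.44). *Mirlet7a-2* had 5.31 and 5.20 in arrays labelled KO and 5.81 and 5.46 in WT arrays, also without overlap (−0.38). *Mirlet7g* and *Mirlet7a-2* had the smallest p of the family, with an adjusted p of 0.353 and 0.348 from limma.

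The other let-7 genes overlapped between the groups. *Mir98* had 4.81 and 4.60 in arrays labelled KO and 5.54 and 4.70 in WT arrays. *Mirlet7e* had 7.16 and 7.06 in arrays labelled KO and 7.92 and 7.01 in WT arrays. *Mirlet7i* had 7.01 and 7.27 in arrays labelled KO and 7.47 and 7.22 in WT arrays. Their differences were −0.41, −0.35 and −0.20. *Mirlet7f-2* had 4.35 and 4.07 in arrays labelled KO and 4.22 and 4.31 in WT arrays, the smallest difference (−0.057) and the only member in which WT replicate 1 was not the highest array. *Mirlet7f-1* and *Mirlet7f-2* code for the same let-7f-5p from separate chromosomes.

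*Mirlet7b* and *Mirlet7c-2* have no probe set of their own, and each shares 1 with the transcript *Lncppara*. The probe set of *Mirlet7b* had 7.15 and 7.18 in arrays labelled KO and 7.74 and 7.29 in WT arrays. That of *Mirlet7c-2* had 6.84 and 6.93 in arrays labelled KO and 7.32 and 7.04 in WT arrays. In both, the WT arrays lay above the arrays labelled KO.

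Genes that govern let-7 or are repressed by it did not pass limma's test either. Of 16 listed, 15 were measured, 11 with a higher and 4 with a lower mean in arrays labelled KO (median 0.11). With an unadjusted p under 0.05, 4 were higher (background 5.88%) and 1 lower (background 8.58%). *Lin28b*, which blocks let-7 maturation, had 5.27 and 4.95 in arrays labelled KO and 5.43 and 5.51 in WT arrays (−0.36, adjusted p = 0.360). *Myc*, a growth regulator, had 10.34 and 10.22 in arrays labelled KO and 9.08 and 9.83 in WT arrays (0.83, adjusted p = 0.208). *Igf2bp1*, an RNA-binding protein, had 9.62 and 9.53 in arrays labelled KO and 8.74 and 9.20 in WT arrays (0.61, adjusted p = 0.208). *Ccnd2*, a cyclin of the G1 phase, had 12.15 and 12.08 in arrays labelled KO and 11.47 and 11.68 in WT arrays (0.54, adjusted p = 0.157). *Arid3b*, a DNA-binding protein, had 7.45 and 7.29 in arrays labelled KO and 7.84 and 7.67 in WT arrays (−0.39, adjusted p = 0.288). In each of these the groups did not overlap, but most were named for a small p, and 6 of the 15 measured genes overlapped. Of the 15, both arrays labelled KO lay above both WT arrays in 6 (background 17.6%) and below both in 3 (background 31.8%).

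The *Mir17* cluster, a set of growth-promoting microRNAs cut from a single transcript on chromosome 14, also had lower means in arrays labelled KO. Of its 6 genes 5 have a probe set of their own, and all 5 were lower, with a median of −0.39. The medians were −0.62 against WT replicate 1 and −0.15 against WT replicate 2, where 4 of 5 were lower. None passed limma's test (adjusted p 0.376 to 0.641). *Mir17* had 5.18 and 5.07 in arrays labelled KO and 5.55 and 5.34 in WT arrays, a difference of −0.31 (SE 0.14), and it alone did not overlap between the groups. *Mir19b-1* had 5.06 and 4.80 in arrays labelled KO and 6.07 and 5.06 in WT arrays (−0.63). *Mir18* had 5.58 and 5.19 in arrays labelled KO and 6.44 and 5.54 in WT arrays (−0.61). In both, WT replicate 1 lay far above the other arrays. *Mir19a* had 4.84 and 4.46 in arrays labelled KO and 5.27 and 4.80 in WT arrays (−0.39). *Mir20a* had 4.39 and 4.29 in arrays labelled KO and 4.89 and 4.24 in WT arrays (−0.23), with WT replicate 2 below both arrays labelled KO.

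The host transcript *Mir17hg* had 5.95 and 5.87 in arrays labelled KO and 7.19 and 5.79 in WT arrays, with a difference of −0.58 (SE 0.41, adjusted p = 0.534). The probe set that names *Mir92-1*, the last gene of the cluster, beside *Mir17hg* had 5.67 and 5.70 in arrays labelled KO and 6.82 and 5.85 in WT arrays. Both thus followed the pattern of the cluster, with WT replicate 1 highest.

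The paralogous clusters on chromosomes 5 and X differed less between the groups. All 8 measured genes had a lower mean in arrays labelled KO (median −0.095), though *Mir106b*, *Mir93*, *Mir19b-2* and *Mir363* had a higher one under cyclic loess scaling. In 2 of the 8 both arrays labelled KO lay below both WT arrays, against 31.8% of all genes and 51.0% of microRNA genes. The medians of the 8 were −0.24 against WT replicate 1 and −0.0034 against WT replicate 2. *Mir106b*, *Mir93* and *Mir25* had differences of −0.032, −0.061 and −0.086. They lie within *Mcm7*, a subunit of the DNA helicase of replication, which had 11.225 and 10.998 in arrays labelled KO and 9.59 and 10.48 in WT arrays. Its difference was 1.08 (SE 0.29, adjusted p = 0.167). *Mir25* was the brightest of the 3, with 8.33 and 8.32 in arrays labelled KO and 8.47 and 8.35 in WT arrays. On chromosome X, *Mir20b* had 4.75 and 4.62 in arrays labelled KO and 5.30 and 4.68 in WT arrays (−0.31), *Mir92-2* a difference of −0.25, *Mir106a* −0.16, *Mir19b-2* −0.10 and *Mir363* −0.058.

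**Figure D3:**
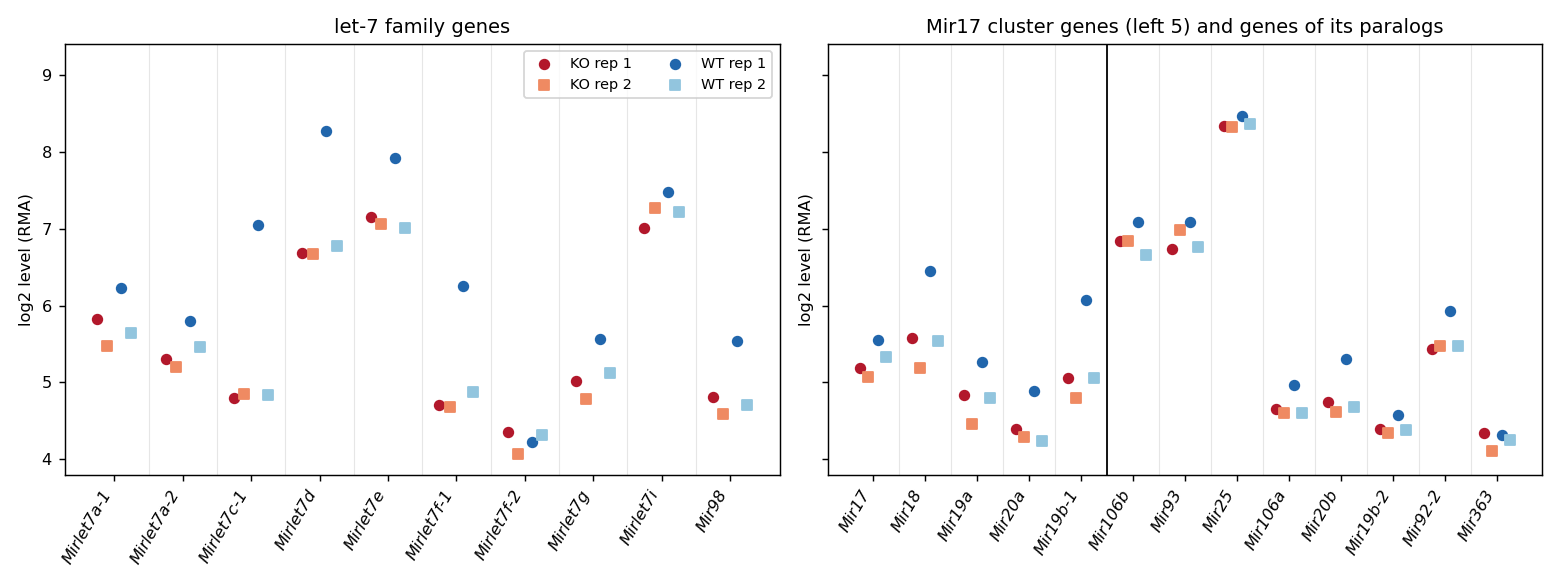
Log2 levels (RMA) of the 10 let-7 genes (left panel) and of the *Mir17* cluster and its paralogs (right panel, parted by the vertical line), with KO replicates 1 and 2 left of WT replicates 1 and 2 for each gene. WT replicate 1 is the highest array for 9 of the 10 let-7 genes and all 5 genes of the cluster.

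Of regulators and targets of the *Mir17* cluster, 9 of 11 listed genes were measured, 7 with a higher and 2 with a lower mean in arrays labelled KO (median 0.33). *Mycn*, a transcription factor that drives the cluster in other tissues, had 9.55 and 9.43 in arrays labelled KO and 8.17 and 8.96 in WT arrays (0.93, adjusted p = 0.182). *E2f3*, a cell-cycle factor, had 9.54 and 9.41 in arrays labelled KO and 8.74 and 8.98 in WT arrays (0.61, adjusted p = 0.137). *Ccn2*, a matrix protein that miR-18a and miR-19 repress, had 10.69 and 10.62 in arrays labelled KO and 11.35 and 11.24 in WT arrays (−0.64, adjusted p = 0.0937). The groups did not overlap in these genes, which were named for a small p, and none passed the test. Of the 9 measured, both arrays labelled KO lay above both WT arrays in 6 (background 17.6%) and below both in 2 (background 31.8%).

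Of the 10 largest differences without overlap, 9 lay in a single imprinted region of chromosome 12, between *Dlk1* and *Dio3*, whose microRNAs are cut from transcripts of the maternal chromosome. This region was singled out after its values were seen, so its counts are a description. All 40 measured genes there had a lower mean in arrays labelled KO, with a median of −0.95, where the other 256 microRNA genes had −0.25. In 36 of 40 both arrays labelled KO lay below both WT arrays (31.8% of all genes did), and 18 of 40 were lower with an unadjusted p under 0.05 (8.58% of all genes), 18 of the 39 such microRNA genes. Against WT replicate 1 the median was −1.57, and against WT replicate 2 it was −0.22, with 37 of 40 lower. Lower by more than 1.2-fold against WT replicate 2 were 17 of 40 (background 14.4%). WT replicate 1 was the highest array in all 40. For the other 256 genes, the median was −0.39 against WT replicate 1 and −0.078 against WT replicate 2.

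*Mir380* had 4.41 and 4.71 in arrays labelled KO and 7.60 and 5.30 in WT arrays, a difference of −1.89 (SE 0.66, adjusted p = 0.273 from limma). *Mir377* had 7.22 and 6.37 in arrays labelled KO and 9.02 and 7.85 in WT arrays, a difference of −1.65 (SE 0.42, adjusted p = 0.158). *Mir485* had 7.31 and 7.10 in arrays labelled KO and 9.14 and 7.97 in WT arrays, a difference of −1.36 (SE 0.35, adjusted p = 0.164). In these both WT arrays stood clear of the arrays labelled KO, and against WT replicate 2 alone the differences were still −0.74, −1.06 and −0.77. *Mir382* had 7.55 and 6.92 in arrays labelled KO and 9.34 and 7.94 in WT arrays (−1.41). *Mir379*, the first gene of the largest cluster, had 4.18 and 3.73 in arrays labelled KO and 6.77 and 4.26 in WT arrays (−1.56). There WT replicate 2 lay just above KO replicate 1. *Mir329*, *Mir300*, *Mir376b* and *Mir543* had differences of −1.49, −1.44, −1.40 and −1.33.

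Within the region, the differences were not uniform. The 30 genes of the cluster that starts with *Mir379*, spaced less than 10000 bases apart, had a median of −1.05, and −0.33 against WT replicate 2. The 7 genes of the cluster that starts with *Mir337*, near *Rtl1*, had a median of −0.56, and −0.15 against WT replicate 2. Near neighbours could differ, as *Mir380* had −1.89 and *Mir299a*, next to it, −0.34. *Mir299a* was dim, with 4.04 and 3.98 in arrays labelled KO and 4.46 and 4.23 in WT arrays. The lowest mean of any gene was 3.27, so there was little room for a larger fall. The 76 mature sequences of the 40 genes hold 74 distinct seeds, so few seeds recur.

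The long noncoding transcripts of the region had means lower in the same way. *Meg3*, a maternally expressed RNA, had 10.84 and 10.79 in arrays labelled KO and 12.66 and 11.23 in WT arrays (−1.13, adjusted p = 0.299). *Rian*, in which *Mir341* and *Mir370* lie, had 7.21 and 6.87 in arrays labelled KO and 9.48 and 6.95 in WT arrays (−1.18, adjusted p = 0.481). *Meg3* did not overlap between the groups, while in *Rian* WT replicate 2 lay between the arrays labelled KO. The probe set that names *Mirg* with *Mir410* had 7.60 and 6.99 in arrays labelled KO and 9.33 and 8.27 in WT arrays. The protein-coding genes of the region, which are paternally expressed, had smaller differences. *Dlk1*, a membrane ligand related to Notch ligands, had 13.29 and 13.30 in arrays labelled KO and 13.31 and 13.28 in WT arrays. *Dio3*, which inactivates thyroid hormone, had a difference of 0.098 and *Rtl1* of −0.16.

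**Figure D4:**
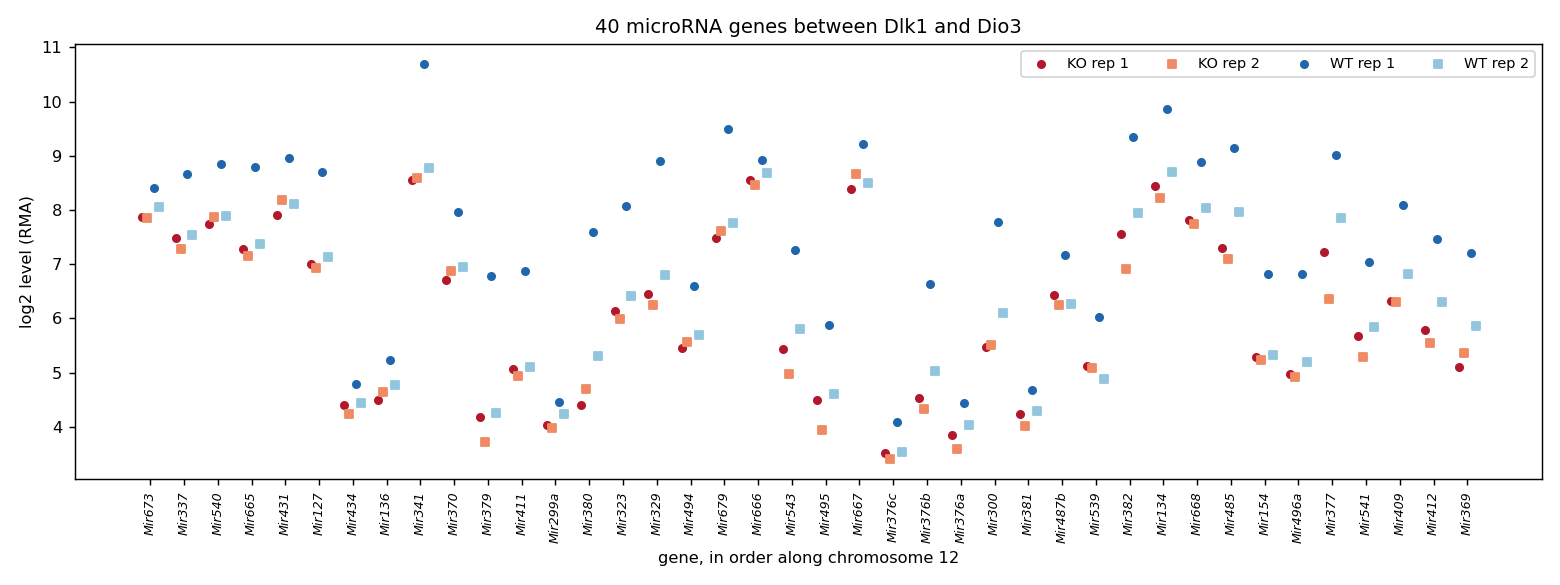
Log2 levels (RMA) of the 40 microRNA genes between *Dlk1* and *Dio3*, in their order along chromosome 12, with KO replicates 1 and 2 left of WT replicates 1 and 2 for each gene. WT replicate 1 is the highest array for all 40, and WT replicate 2 lies above both arrays labelled KO for 36.

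Outside the region, the largest difference was that of *Mir218-1*, a microRNA known from motor neurons. It had 7.60 and 7.25 in arrays labelled KO and 11.02 and 8.11 in WT arrays, a difference of −2.14 (SE 0.83, adjusted p = 0.319 from limma), and −0.69 against WT replicate 2 alone. Its host *Slit2* had 11.58 and 11.50 in arrays labelled KO and 12.24 and 11.85 in WT arrays, a difference of −0.50 (adjusted p = 0.252). Neither overlapped between the groups. *Mir34a*, a target of p53, had 5.34 and 5.45 in arrays labelled KO and 6.12 and 5.94 in WT arrays. Its difference of −0.64 (SE 0.14) had the smallest adjusted p of all microRNA genes, 0.110, and stood at −0.73 and −0.54 against WT replicates 1 and 2. *Mir505* and *Mir15a*, with differences of −1.34 and −1.26, overlapped, since WT replicate 2 lay below both arrays labelled KO in *Mir505* and between them in *Mir15a*.

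In 4 genes both arrays labelled KO lay above both WT arrays, none of them past the test. *Mir692-1*, the brightest microRNA gene, had 10.66 and 10.74 in arrays labelled KO and 10.12 and 10.63 in WT arrays (0.32, adjusted p = 0.467). The probe sets that name *Mir692-2* and *Mir692-3* also name the gene *Ftl1*, and WT replicate 1 was lowest in each. The dimmest of them had 11.72 and 11.69 in arrays labelled KO and 11.05 and 11.62 in WT arrays. Whether the probe set of *Mir692-1* also detects *Ftl1* was not tested. *Mir216b*, *Mir196a-2* and *Mir463* had differences of 0.078, 0.029 and 0.021, less than their standard errors of 0.13, 0.12 and 0.12. The next brightest genes were *Mir210*, a target of hypoxia signalling (9.25 and 9.41 in arrays labelled KO, 9.67 and 9.34 in WT arrays), *Mir346* (9.13 and 9.33 in arrays labelled KO, 9.76 and 9.37 in WT arrays), *Mir341* (8.55 and 8.60 in arrays labelled KO, 10.70 and 8.77 in WT arrays) and *Mir680-3* (8.91 and 8.92 in arrays labelled KO, 9.89 and 8.78 in WT arrays). In *Mir210* and *Mir680-3* the groups overlapped.

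MicroRNA genes of named cell types were described by lists. Of 4 measured genes of the epithelial miR-200 family, which keeps epithelial character, 3 had a lower mean in arrays labelled KO. Lower with an unadjusted p under 0.05 were 2 of the 4, against 13.2% of all microRNA genes and 8.58% of all genes. *Mir200b* had 6.31 and 5.93 in arrays labelled KO and 7.48 and 6.47 in WT arrays (−0.85, adjusted p = 0.316). *Mir200a*, beside it on chromosome 4, had 7.29 and 7.05 in arrays labelled KO and 7.80 and 7.43 in WT arrays (−0.45, adjusted p = 0.323). *Mir141* and *Mir200c*, the pair on chromosome 6, had −0.31 and 0.079. Of 9 lung epithelial markers, 6 had a lower and 3 a higher mean in arrays labelled KO. *Sftpd*, *Scgb1a1* and *Sftpa1* had differences of −3.07, −2.69 and −1.10 (adjusted p = 0.00742, 0.00283 and 0.0258 from limma). *Ager*, *Sftpb* and *Sftpc* had −0.85, −0.56 and −0.096 (adjusted p = 0.0511, 0.124 and 0.728 from limma). *Epcam*, *Nkx2-1* and *Foxj1* had higher means, with differences of 0.69, 0.11 and 0.049 (adjusted p = 0.178, 0.700 and 0.876 from limma). The summed linear level of the 9 was 38350 to 38550 in arrays labelled KO and 57910 to 58700 in WT arrays, and their part in the values of the miR-200 genes was not tested.

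The 5 measured genes of the miR-34 and miR-449 family, which multiciliated cells need for their cilia, all had lower means (median −0.20). *Mir34b* had a difference of −0.30, *Mir34c* of −0.17 and *Mir449a* of −0.17, and their hosts *Hoatz* and *Cdc20b* had −0.0063 and 0.27. *Mir126a*, the endothelial microRNA within *Egfl7*, had 4.997 and 5.028 in arrays labelled KO and 6.219 and 4.996 in WT arrays (−0.60), so that WT replicate 1 stood alone. Endothelial markers, *Egfl7* among them with −0.34, had lower means in arrays labelled KO for 4 of 5 genes (median −0.27). Their part in the value of *Mir126a* was not tested. Among 9 muscle genes 8 were lower (median −0.18): *Mir145a* and *Mir143*, of smooth muscle, had −0.95 and −0.76 but −0.087 and −0.029 against WT replicate 2 alone, and *Mir133a-1* and *Mir133a-2*, of striated muscle, −0.33 and −0.22. Smooth muscle markers had higher means in arrays labelled KO for 5 of 5 genes (median 0.16, none called), with a summed linear level of 10950 to 11670 in arrays labelled KO and 9495 to 10840 in WT arrays. The heart muscle markers named above had higher means, *Nppa* with a difference of 1.78 (adjusted p = 0.0172), and the part of either list in these values was not tested.

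Among 11 genes of blood cells 10 were lower (median −0.32), with differences of −1.07 for *Mir181b-1*, −0.68 for *Mir181a-2*, −0.40 for *Mir150* and −0.38 for *Mir181a-1*. The median of the 11 was −0.54 against WT replicate 1 and −0.11 against WT replicate 2. The lower leukocyte markers are given above, and their part in these values was not tested. All 10 neural genes were lower (median −0.20), with −0.72 for *Mir128-1*, −0.33 for *Mir9-1*, −0.26 for *Mir7-2* and −0.21 for *Mir124a-2*. Their median was −0.36 against WT replicate 1 and −0.049 against WT replicate 2. None of these lists held a gene called by limma. Of all 296 microRNA genes, 282 (95.3%) had a lower mean in arrays labelled KO, with a median of −0.30. Beside that share, the counts of lower genes in the cell type lists do not set these lists apart. The 4 genes of the *Mir322* cluster on chromosome X with a probe set of their own had small differences: *Mir542* had 6.36 and 6.43 in arrays labelled KO and 6.36 and 6.41 in WT arrays, and *Mir450-1*, *Mir450-2* and *Mir450b* had differences of −0.034, −0.084 and 0.0082 at levels under 4. *Mir351*, *Mir503* and *Mir322* of the same cluster, which share their probe sets with *C430049B03Rik*, had lower means in arrays labelled KO, with differences of −0.88, −0.67 and −0.30, and −0.33, −0.12 and −0.10 against WT replicate 2.

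The genes in which microRNAs lie had smaller differences than the microRNA genes. Of 258 microRNA genes with a known strand, 124 lie inside another gene on the same strand, and 90 of these have a measured host, 72 hosts in all. The hosts had a median difference of −0.0080, 39 lower and 33 higher in arrays labelled KO, with 0 called by limma. The microRNA genes inside them had a median of −0.32, and the microRNA had the lower difference in 80 of 91 pairs, in which some hosts recur. Most hosts were brighter than the microRNA gene inside them, as *Wdr82* with a mean level of 11.26 and *Mirlet7g* with 5.12. Among genes that are no microRNA gene, the median against WT replicate 1 was −0.20 up to the 10th percentile of level and 0.15 above the 60th. The pairs thus set genes of unlike level side by side, and the part of level was not tested. Against WT replicate 1 the medians were −0.53 for the microRNA genes and −0.026 for their hosts, and against WT replicate 2 −0.081 and 0.018. *Mirlet7g* had −0.44 where its host *Wdr82*, a subunit of a histone methyltransferase complex, had 0.44. *Mir301b* and *Mir130b* had −0.48 and −0.24 in a host with 1.13, *2610318N02Rik*, and 0.025 and 0.053 against WT replicate 2 alone. MicroRNA genes outside any gene on their strand, 134 in number, had a median of −0.30, close to the −0.31 of those inside one.

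**Figure D5:**
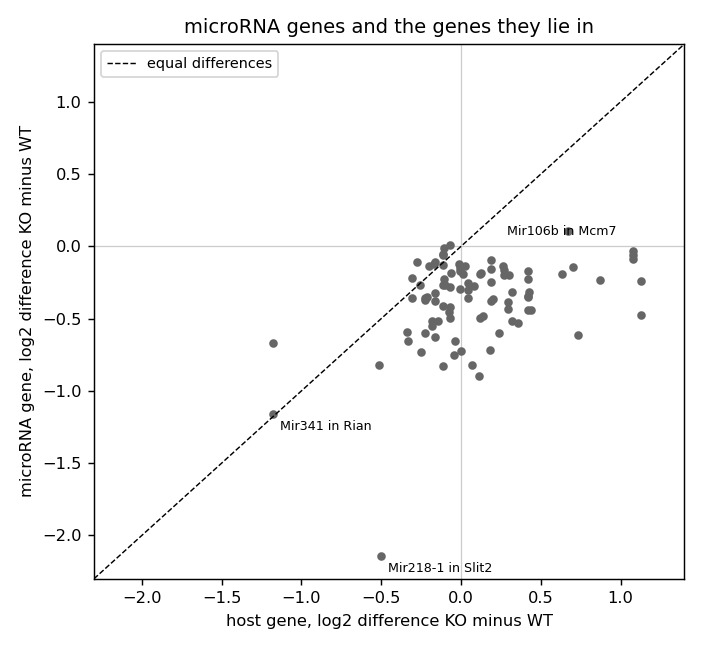
Log2 difference (KO minus WT) of each microRNA gene against that of the gene it lies in, 1 point per pair, 91 pairs. The dashed line marks equal differences. In 80 pairs the point lies below it, and *Mir106b*, *Mir93* and *Mir25* sit at the right with *Mcm7* at 1.08.

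Genes of microRNA processing and action were mixed in direction. Of 21 listed and 20 measured, 13 had higher and 7 lower means in arrays labelled KO (median 0.074). With an unadjusted p under 0.05, 3 were higher (background 5.88%) and 1 lower (background 8.58%), and none was called. *Drosha* had 9.999 and 9.942 in arrays labelled KO and 9.38 and 9.78 in WT arrays (0.39, adjusted p = 0.362). *Dicer1* had 10.60 and 10.52 in arrays labelled KO and 10.75 and 10.39 in WT arrays (−0.010). *Ran*, which powers the export of hairpins from the nucleus, had 10.95 and 10.85 in arrays labelled KO and 9.98 and 10.47 in WT arrays (0.67, adjusted p = 0.184). *Tarbp2*, a partner of DICER1, had a difference of 0.42 and *Srrt*, which feeds primary transcripts to DROSHA, of 0.32. *Ago4*, an Argonaute, had 8.71 and 8.57 in arrays labelled KO and 9.07 and 8.91 in WT arrays (−0.35, adjusted p = 0.325).

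Genes were also grouped by the seeds of the mature sequences that the RefSeq table holds for them. A gene is missing from a group where RefSeq gave no mature sequence with that seed for it, which does not show that its seed differs. The 9 genes with the let-7 seed GAGGUAG, *Mirlet7a-2* not among them, had a median of −0.41, and −0.076 against WT replicate 2. The 6 genes with the *Mir17* seed AAAGUGC, on 3 chromosomes, had −0.19, and 0.062 against WT replicate 2. The 4 genes with the seed GGCAGUG of *Mir34a*, *Mir34c* not among them, had −0.25, and −0.093 against WT replicate 2. Against WT replicate 1 the medians of these groups, in the same order, were −0.81, −0.38 and −0.53.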

How the data were processed

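Biotinylated cRNA of whole lung at embryonic day 18.5 was hybridised to Affymetrix arrays, 2 KO and 2 WT. The authors summarised the probes with RMA (Affymetrix Expression Console, no version stated) and deposited log2 values of 30177 probe sets, which were used unchanged. No detection call comes with them, and precision is limited by the number of arrays. Gene symbols came from the platform annotation, which gives 21789 probe sets 1 symbol, 1621 several and 6767 none. All 296 microRNA genes were found in RefSeq GRCm38.p6, 270 with a mature and 258 with a hairpin sequence. A host is a gene of that table that spans the hairpin on its strand.

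Differences were tested in limma 3.58.1 under R 4.3.3 with lmFit and then eBayes, intensity trend off. The residual degrees of freedom were 2 and the prior degrees 4.42. P values were adjusted by Benjamini-Hochberg over 19938 genes and called under 0.05. On simulated data of this design, 67 of 100 genes changed by a log2 of 1 and 98 of 100 changed by 2 were called, with 12 false calls among 19938 genes. The simulated noise was independent between arrays, and no array was shifted as WT replicate 1 was. These rates therefore do not carry over to the microRNA genes, and a gene not called is not shown to be unchanged.

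The members and gene lists were chosen with earlier results of these data known. The rule for naming took *Hmga2*, every measured let-7 and *Mir17* gene with the paralogs, the 10 largest differences in each direction without overlap, the 5 brightest microRNA genes, up to 4 genes with the smallest p of each other list, and their hosts. Other genes named, among them those between *Dlk1* and *Dio3*, were chosen after their values were seen. Listed genes without a probe set of their own were not analysed here beyond the shared probe sets named. As alternatives, the fit was repeated with a block for replicate number, with arrays centred on their medians, with cyclic loess, without the dimmest 40% of genes, with probe sets averaged per gene, with a robust eBayes trend, at a threshold of 0.10 and without each array in turn. A crossed block and the count of lower means per setting were added after the data were seen. Figures were drawn with matplotlib 3.10.9.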

Additional observations from a re-analysis of the deposited data

How the results depend on the processing

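With 2 arrays a group, counts of calls turned on single arrays. The median differences of the microRNA genes, the let-7 genes and the *Mir17* cluster genes were negative under every scaling, filter and left-out array run, between −0.51 and −0.091 for the microRNA genes, −0.74 and −0.086 for let-7 genes and −0.62 and −0.15 for *Mir17* cluster genes when 1 array was left out. Cyclic loess gave −0.19, −0.28 and −0.23, and 227 of 296 microRNA genes a lower mean in arrays labelled KO. It moved the median of all genes by less than 0.1, to −0.0022. The number of microRNA genes called lower was 0 to 175 and called higher 0 to 1 with 1 array left out. The number of biogenesis genes called was 0 to 7. Each was highest without WT replicate 2, where 6292 of 19938 genes were called over all genes. Beside that count, 7 of 20 measured biogenesis genes do not set this list apart. Same-numbered arrays had deviations correlated at −0.238 over all genes and 0.174 over microRNA genes, and with only 2 numbers and no shared origin in the labels the numbers were not taken as pairs. With the replicate block 23 of 296 microRNA genes were called lower, where 602 of 19938 genes were called in either direction. With the crossed pairing 0 were called, and 81 of 296 had an unadjusted p under 0.05, against 4069 of 19938 over all genes. Over all genes, limma called 156, against 602 with the block, 512 with the crossed pairing, 294 after centring, 350 after cyclic loess, 301 of 11963 without dim genes, 1638 and 6292 without WT replicates 1 and 2, and 1 and 0 without KO replicates 1 and 2. Of the 66 microRNA genes that the naming rule took, cyclic loess turned the sign of *Mir106b* (0.0604), *Mir19b-2* (0.0599), *Mir363* (0.109), *Mir450-1* (0.142), *Mir450-2* (0.0906), *Mir93* (0.0293) and *Mirlet7f-2* (0.111). Leaving out 1 array gave both signs for 16 of them: *Mir106a* (−0.345 to 0.0249), *Mir106b* (−0.246 to 0.181), *Mir126a* (−1.21 to 0.0159), *Mir200c* (−0.183 to 0.342), *Mir20a* (−0.551 to 0.0986), *Mir363* (−0.174 to 0.0578), *Mir450-1* (−0.162 to 0.0931), *Mir450-2* (−0.192 to 0.0252), *Mir450b* (−0.0472 to 0.0637), *Mir542* (−0.0245 to 0.0524), *Mir680-3* (−0.978 to 0.138), *Mir93* (−0.226 to 0.103), *Mir98* (−0.833 to 0.00439), *Mirlet7a-1* (−0.582 to 0.00549), *Mirlet7e* (−0.811 to 0.103) and *Mirlet7f-2* (−0.194 to 0.0812). The cause of these changes was not tested.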

Other observations

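Across the 258 microRNA genes with a hairpin sequence, the mean level on the arrays was higher where the GC content of the hairpin was higher (Pearson r = 0.74, Spearman rho = 0.74, across genes, which share arrays and are not independent). The GC content and the difference between arrays labelled KO and WT arrays had r = 0.08. Probe sets that name a microRNA beside other symbols, 38 with distinct values, had lower means in arrays labelled KO for 30, with a median of −0.25, −0.41 against WT replicate 1 and −0.10 against WT replicate 2. Among them *Mir24-1*, *Mir27b* and *Mir23b*, each sharing its probe set with *Aopep*, had differences of −1.20, −1.15 and −0.97.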
